A study of Mus musculus with 9 samples.

Results

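The genes of the major histocompatibility complex (MHC; H2 in the mouse) and of its antigen presentation machinery were followed in bulk RNA-seq of the spinal cord of mice whose cord had been cut through at T9, a thoracic level. Members were all genes of the deposited table whose symbol begins with H2- (44 genes) together with Cd74, Ciita, B2m, Tap1, Tap2, Tapbp and Nlrc5, which makes 51 of 34745 genes. Of these, 36 belong to class I, 14 to class II, and 1, H2-Ke6, is a neighbour in the H2 region that encodes no MHC chain. The 9 libraries fell into 3 groups of 3: spinal cord at 0 days (titled N), 3 days and 21 days after the injury, with no transgene, drug or other agent named for any group. The series' design text gives a 0 day group, and the letter N in the titles, which is not explained, was taken as that group. No source used here gives the strain, sex or age of the mice, the length of cord taken, or whether the day 0 animals had a sham operation, and none says that each library is a different mouse, so the spread behind every p-value is that of these libraries and may be technical.

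Class I molecules display peptides made inside a cell to CD8 T cells. Their heavy chain pairs with beta-2-microglobulin (B2m), is loaded with peptides that the Tap1 and Tap2 transporter brings into the endoplasmic reticulum, and is held at the transporter by tapasin (Tapbp). Class II molecules display peptides from endocytosed protein to CD4 T cells; an alpha and a beta chain assemble on the invariant chain (Cd74), and H2-DM then exchanges the last invariant chain fragment for peptide, a step that H2-DO restrains. In healthy spinal cord class II is nearly confined to a few microglia and border cells, and both classes are known to appear on microglia and infiltrating macrophages after injury. The transcription of class I genes is driven by NLRC5 and that of class II genes by CIITA, both of which bind no DNA themselves and sit on a promoter module where RFX proteins, CREB or ATF proteins and NF-Y are bound side by side.

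Sequencing depth was 14299679 to 24022923 counts per library. Members held 0.0445% to 0.048% of all counts at day 0, 0.123% to 0.128% at day 3 and 0.128% to 0.221% at day 21. Day 21 replicate 2 stood apart from the other libraries: over all genes its log expression correlated at 0.943 and 0.935 with the other day 21 libraries, against 0.985 to 0.989 for every pair of libraries within day 0 or day 3 and 0.987 for day 21 replicates 1 and 3. Its member levels were also higher, with a median ratio to the mean of replicates 1 and 3 of 1.4 over 21 class I members (18 of them above 1) and 1.74 over 10 class II members (9 above 1). Results for day 21 are therefore also given without it where it alters them. Levels are counts divided by merged exon length in kilobases and by the library's total count (the RPKM scale), so that they can be set side by side between genes.

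The promoters of 5 members are shown because promoters of this kind are where both transactivators are known to act. Each line is the 180 bases before the RefSeq start site (build GRCm38.p6; for H2-K1 the farther upstream of 2 starts), 5′ to 3′ on the gene's strand; capitals mark 4 motifs, each searched on both strands. They are CCAAT, bound by NF-Y and read as ATTGG on the other strand, TGACG, the core of CREB and ATF sites, GAAANNGAAA, an interferon-stimulated response element, and GGGANNNNCC, an NF-kappa-B form. The stretches are H2-K1 at chr17:34000348-34000527 (minus strand), B2m at chr2:122147507-122147686 (plus strand), H2-Q4 at chr17:35379437-35379616 (plus strand), H2-Aa at chr17:34287824-34288003 (minus strand) and H2-Eb1 at chr17:34305687-34305866 (plus strand).
H2-K1: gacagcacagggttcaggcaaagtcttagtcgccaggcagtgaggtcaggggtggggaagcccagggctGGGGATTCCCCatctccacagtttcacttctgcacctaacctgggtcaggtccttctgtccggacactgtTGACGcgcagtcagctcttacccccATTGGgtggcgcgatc
B2m: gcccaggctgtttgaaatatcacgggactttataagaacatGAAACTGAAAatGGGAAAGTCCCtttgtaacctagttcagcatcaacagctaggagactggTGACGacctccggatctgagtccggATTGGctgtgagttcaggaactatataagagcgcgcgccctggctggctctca
H2-Q4: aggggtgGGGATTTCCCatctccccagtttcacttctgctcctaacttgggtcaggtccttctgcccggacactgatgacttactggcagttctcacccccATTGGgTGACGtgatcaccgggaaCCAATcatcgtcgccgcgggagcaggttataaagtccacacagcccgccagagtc
H2-Aa: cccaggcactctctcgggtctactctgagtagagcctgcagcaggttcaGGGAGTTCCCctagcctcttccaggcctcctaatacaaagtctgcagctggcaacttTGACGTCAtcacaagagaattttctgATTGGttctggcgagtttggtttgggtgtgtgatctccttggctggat
H2-Eb1: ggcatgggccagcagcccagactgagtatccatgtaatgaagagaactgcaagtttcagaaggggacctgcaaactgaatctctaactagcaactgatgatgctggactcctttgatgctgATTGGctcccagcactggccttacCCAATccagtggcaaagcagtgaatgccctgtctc

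In H2-K1, B2m and H2-Aa the same order recurs, TGACG and then ATTGG farther downstream. The former began 41 bases before the start site in H2-K1, 78 in B2m and 74 in H2-Aa, and the latter began 16, 53 and 48 bases before it. H2-Eb1 and H2-Q4 had CCAAT motifs without TGACG in that place, and in H2-Q4 the order of the letters differed: ATTGG began 79 bases and TGACG 73 bases before the start. Searched in either direction with 20 or 21 bases between the motifs, an arrangement noted after these letters had been seen, the pair was in 54 of 32851 promoters of 300 bases, or 0.164%. Members with the pair were B2m, H2-D1, H2-K1 and H2-M3, 4 of the 25 class I genes with a promoter in the table, and H2-Aa, 1 of 8 class II genes. CCAAT alone was in 22 of the 25 class I and 8 of the 8 class II genes and in 37.4% of all promoters. TGACG was in 13 of 25, 1 of 8 and 20.8%, the NF-kappa-B form in 10 of 25, 2 of 8 and 20.7%, and the interferon-stimulated element in 3 of 25, 0 of 8 and 3.44%. The gamma-interferon activation form TTCNNNGAA was in 2 of 25 and 1 of 8, against 8.3%. H2-Ab1, Cd74, Ciita, Nlrc5 and Tap2 are named only. A match of letters is a description of the sequence and no evidence of binding.

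Most of the class I members tested were called higher after the injury. Of 36 class I members, 27 had a count in some library and 21 passed the filter on low counts. At day 3 against day 0, 13 of these were called higher and 3 lower, and 5 were not called, with a median log2 fold change of 0.97. Over all 16494 genes tested, 24.8% were called higher and 19.5% lower (44.3% in either direction), with a median of 0.01. At day 21 against day 0, 15 were called higher and 0 lower, with a median of 1.22; the share of all genes was 17.9% higher and 11.3% lower (29.2% in either direction), with a median of 0.02. Among these 21, H2-M5, H2-Q1 and H2-Q5 had only 1 day 0 library over the filter's minimum. For the 0, 0 class I members were lower at an unadjusted p under 0.05 as well, in edgeR and in DESeq2. In bulk tissue, more cells of a type and more RNA per cell cannot be told apart. The summed level of 8 monocyte and macrophage markers was also higher after the injury. It was 29.0 to 31.4 RPKM at day 0, 711 to 728 at day 3 and 502 to 726 at day 21. That of 6 microglia markers went from 82.1 to 102 at day 0 to 264 to 274 at day 3 and 256 to 313 at day 21. Summed class I heavy chains stood to the macrophage markers at 2.81 ± 0.213 (SD, n = 3) at day 0. This ratio was 0.302 ± 0.000869 at day 3 and 0.488 ± 0.0281 at day 21. All 8 macrophage markers and 4 of 6 microglia markers were called higher at both times, and none of the 14 was at 0 in every library. Among the macrophage markers, Ccr2 and Ms4a7 had no day 0 library over the filter's minimum and passed through the injured libraries alone. The part of macrophages and microglia in the rise was not tested.

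The classical heavy chains H2-D1 and H2-K1, which present peptides to CD8 T cells in most tissues, lie at chr17:35262730-35267499 and chr17:33996017-34000333. H2-D1 stood at 49.1, 40.5 and 41.8 RPKM in the day 0 libraries, 128, 124 and 129 at day 3 and 146, 201 and 127 at day 21. H2-K1 stood at 13.8, 15.2 and 15.0, then 44.7, 45.2 and 40.8, then 49.6, 80.6 and 44.7. For both genes every injured library lay above every day 0 library, which held for 37.5% of all genes tested at day 3 and 27.2% at day 21. The day 3 and day 21 values overlapped, and the highest value was that of day 21 replicate 2. H2-D1 rose by a log2 fold change of 1.48 ± 0.16 (SE; edgeR adjusted p = 6.26e-05) at day 3 and 1.72 ± 0.16 (6.91e-05) at day 21. The corresponding values of H2-K1 were 1.52 ± 0.20 (0.000254) and 1.86 ± 0.20 (0.000196). The level of H2-D1 relative to H2-K1 in a library was 3.01 ± 0.488 (SD, n = 3) at day 0, 2.92 ± 0.221 at day 3 and 2.76 ± 0.236 at day 21, and the ranges overlapped in each comparison.

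The light chain B2m (chr2:122147686-122153083) was the most abundant member at every time and H2-D1 the next, whether levels were taken per merged exon, per longest transcript or per the authors' gene length. B2m read 129, 137 and 141 RPKM at day 0, 381, 448 and 444 at day 3, and 628, 862 and 429 at day 21. Its log2 fold change was 1.59 ± 0.21 (adjusted p = 0.000302) at day 3 and 2.10 ± 0.22 (0.000154) at day 21. Between day 3 and day 21 its libraries overlapped, with a log2 fold change of 0.52 ± 0.21 (adjusted p = 0.1) that passed the threshold when day 21 replicate 3 was left out (0.73, adjusted p = 0.0103). The ratio of B2m to all class I heavy chains summed was 1.60 ± 0.172 at day 0, 1.95 ± 0.188 at day 3 and 2.23 ± 0.307 at day 21; every day 3 and day 21 library exceeded every day 0 library (exact two-sided permutation p = 0.1 for each, the smallest that 3 against 3 can give).

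The 3 peptide loading genes rose by log2 fold changes of 0.92 to 1.47 at day 3 and 0.78 to 1.36 at day 21, all called. Tapbp read 12.8, 11.7 and 11.5 RPKM at day 0, 28.7, 28.2 and 27.5 at day 3, and 22.4, 33 and 22.6 at day 21. Its log2 fold change was 1.18 ± 0.15 (adjusted p = 0.000177) at day 3 and 0.99 ± 0.15 (0.00118) at day 21. Tap2, a subunit of the peptide transporter, read 5.24, 4.03 and 4.23 at day 0, 8.61, 9.16 and 8.62 at day 3, and 6.63, 12 and 6.71 at day 21. Its changes were 0.92 ± 0.21 (0.00723) and 0.78 ± 0.21 (0.0245). In both genes day 21 replicate 2 was the high library of its group; without it Tapbp fell by 0.38 (adjusted p = 0.000951) and Tap2 fell by 0.46 (0.00523) from day 3 to day 21. The day 21 call of Tap2 against day 0 was lost without day 0 replicate 2 (adjusted p = 0.0886) or replicate 3 (0.0833). Tap1, the partner of Tap2, had means of 0.812, 2.34 and 2.28 RPKM and changes of 1.47 ± 0.17 and 1.36 ± 0.18, called at both times. Part of the exons of Tapbp (29.0%) and Tap2 (18.5%) overlaps other genes, and the sources used here do not say whether strand was used in counting.

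Nlrc5, the class I transactivator (chr8:94472763-94527272), was low throughout and was called higher at both times against day 0. It read 0.211, 0.127 and 0.247 RPKM at day 0, 0.958, 1.07 and 0.884 at day 3, and 1.14, 0.769 and 1.40 at day 21. The log2 fold change was 2.25 ± 0.29 (adjusted p = 0.000225) at day 3 and 2.37 ± 0.29 (0.000412) at day 21, the largest of any tested class I member at day 3. Day 21 replicate 2, the highest library for H2-D1, H2-K1 and B2m, was the lowest of its group for Nlrc5.

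**Figure D1:**
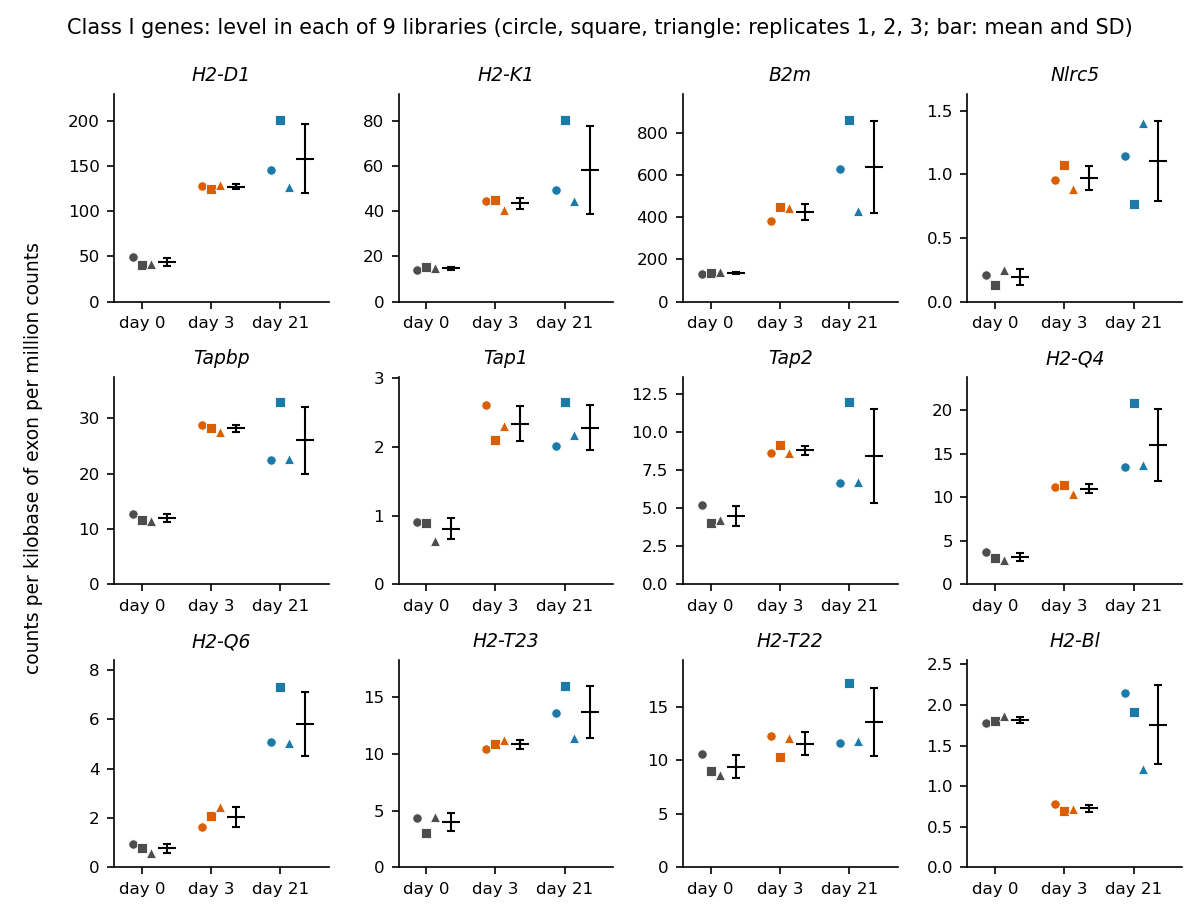
Level of 12 class I genes (vertical axis, RPKM as defined in the text, from 0) in each of the 9 libraries by day after transection; circles, squares and triangles are replicates 1, 2 and 3, and the bar beside them is the mean and SD (n = 3). H2-D1, H2-K1, B2m and H2-Q4 lie higher in every injured library than at day 0, H2-T22 overlaps between day 0 and day 3, and H2-Bl is lowest at day 3.

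The other class I heavy chains, often called non-classical, moved in both directions at day 3. Of 29 such genes, 20 had a count and 14 were tested; 6 were called higher and 3 lower at day 3 against day 0 (24.8% and 19.5% of all genes). At day 21 against day 0, 8 were higher and 0 lower (17.9% and 11.3%). Summed over a library, they amounted to 0.457 ± 0.0011 (SD, n = 3) of the summed level of H2-K1 and H2-D1 at day 0, 0.277 ± 0.004 at day 3 and 0.316 ± 0.0223 at day 21. This ratio was 0.456 to 0.458 in the day 0 libraries, 0.274 to 0.282 at day 3 and 0.292 to 0.336 at day 21, with no overlap between any groups (exact permutation p = 0.1 in each comparison).

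H2-T23, which encodes Qa-1, the ligand of the CD94 and NKG2 receptors of natural killer cells, read 4.39, 3.07 and 4.46 RPKM at day 0, 10.4, 10.9 and 11.2 at day 3, and 13.6, 16.0 and 11.4 at day 21. It rose by 1.39 ± 0.17 (adjusted p = 0.00015) and 1.65 ± 0.17 (0.000139). H2-Q4, of the Qa region, read 3.72, 3.01 and 2.78, then 11.2, 11.4 and 10.4, then 13.5, 20.8 and 13.7. Its changes were 1.74 ± 0.18 (5.77e-05) and 2.21 ± 0.18 (3.95e-05). Of its exon bases, 19.1% overlap Gm11131 on the opposite strand. H2-Q6, which with H2-Q7 belongs to the Qa-2 group, read 0.958, 0.791 and 0.599, then 1.64, 2.09 and 2.44, then 5.08, 7.32 and 5.03. Its groups did not overlap at any step: the log2 fold change was 1.33 ± 0.24 (0.00185) at day 3, 2.75 ± 0.24 (5.44e-05) at day 21 and 1.42 ± 0.22 (0.00182) between them. H2-Q7 had means of 0.530, 1.29 and 2.65 RPKM and changes of 1.22 ± 0.18, 2.19 ± 0.17 and 0.97 ± 0.16, called each time. H2-Q6 and H2-Q7 share 17.9% and 19.1% of their 75-base windows with other transcripts, so their separate values are uncertain.

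H2-T22, a ligand that some gamma-delta T cells bind without peptide, was among the more abundant heavy chains. With all libraries and the filter on low counts, edgeR did not call it in any comparison. It read 10.6, 8.99 and 8.63 RPKM at day 0, 12.3, 10.3 and 12.1 at day 3, and 11.6, 17.2 and 11.8 at day 21. The log2 fold change was 0.25 ± 0.16 (adjusted p = 0.24) at day 3 and 0.40 ± 0.16 (0.0929) at day 21, and the day 3 value passed the threshold without day 21 replicate 2 (0.24, adjusted p = 0.0405). Voom with sample weights called it at day 3 (0.30, adjusted p = 0.0106) and at day 21 (0.27, 0.0454). With a filter of 5 FPKM in 3 libraries in place of that on low counts, edgeR called it at day 21 as well (0.54, 0.0234). Its near copy H2-T10 was not called at either time against day 0. Reads of the pair may be split between them, since 19.7% of the windows of H2-T22 and 14.3% of those of H2-T10 are shared, and 29.4% and 27.1% of their exon bases overlap genes on the opposite strand.

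At day 3, 3 class I heavy chains fell, and these were singled out after their values were seen. H2-Bl, annotated as a polymorphic pseudogene, read 1.78, 1.81 and 1.86 RPKM at day 0, 0.776, 0.696 and 0.717 at day 3, and 2.15, 1.92 and 1.21 at day 21. It fell by 1.36 ± 0.24 on the log2 scale at day 3 (adjusted p = 0.00142) and rose by 1.20 ± 0.24 from day 3 to day 21 (0.00648), and its day 0 and day 21 values overlapped. H2-Q1 fell by 2.19 ± 0.64 (0.0212) from a mean of 0.198 RPKM, a call lost without day 0 replicate 3 (adjusted p = 0.0727). H2-Q2 fell by 1.04 ± 0.30 (0.0197), a call lost without day 0 replicate 2 (0.0529) or 3 (0.0688) or without day 3 replicate 2 (0.0797) or 3 (0.0701). Of the remaining tested heavy chains, H2-M3, which presents formylated bacterial peptides, rose by 0.63 ± 0.17 and 0.64 ± 0.17, and H2-Q5 by 0.97 ± 0.25 and 1.81 ± 0.23. H2-M3 lost each call in several of the fits that left out 1 library (adjusted p 0.0528 to 0.0613 at day 3 without day 0 replicate 1 or 3 or day 3 replicate 3, and 0.0588 to 0.0749 at day 21 without day 21 replicate 1 or any day 0 library). H2-K2 and H2-T24 were called higher at day 21 and not at day 3, by 0.91 ± 0.27 and 1.22 ± 0.21, and the call of H2-K2 was lost without day 0 replicate 2 or 3, day 3 replicate 3 or day 21 replicate 2 (adjusted p 0.0516 to 0.109). H2-T24 was also called at day 3 without day 21 replicate 2 (0.51, adjusted p = 0.0483). H2-M5 was not called, with group means of 0.148 to 0.266 RPKM.

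From day 3 to day 21, 8 of 21 class I members were called higher and 0 lower (0 lower also at an unadjusted p under 0.05 in edgeR and by DESeq2, 2 by voom with sample weights), against 11.7% and 16.1% of all genes tested (27.8% in either direction; all-gene median 0.02). All 8 were non-classical heavy chains: H2-Bl, H2-Q1, H2-Q2, H2-Q5, H2-Q6, H2-Q7, H2-T10 and H2-T24. Their log2 fold changes went from 0.72 in H2-T24 to 3.05 in H2-Q1. H2-Q1 had 0 day 3 libraries over the filter's minimum and 3 at day 21. It was thus tested largely through day 21, and its call and change here are a description. H2-D1 at 0.24 ± 0.15 and H2-K1 at 0.34 ± 0.19 were not called. That count was 5 without day 3 replicate 1, 4 without day 3 replicate 2, 5 without day 3 replicate 3 and 5 without day 21 replicate 1. Without day 21 replicate 2 it was 8 higher and 2 lower, the lower genes being Tapbp and Tap2, while 23.5% of all genes were then called higher and 25.7% lower.

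Against day 0, the tested class II members had a larger median change than class I. Of 14 class II members, 11 had a count and 10 were tested: at day 3 against day 0, 9 were called higher, 0 lower and 1 not called, with a median log2 fold change of 2.04. At day 21, 10 of 10 were called higher, with a median of 2.54 (2.19 without day 21 replicate 2). No class II member was lower at either time at an unadjusted p under 0.05, in edgeR or in DESeq2. The shares of all genes called higher were the 24.8% and 17.9% given for class I. No day 0 library of Ciita or H2-DMb2 and 1 of H2-Oa and of H2-Ob reached the filter's minimum, so these 4 passed through the injured libraries, and the counts and medians over the 10 are a description.

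The chains tested were H2-Aa and H2-Ab1, which pair to form I-A, and H2-Eb1, the beta chain of I-E. H2-Aa (chr17:34282744-34287827) read 0.723, 0.702 and 0.568 RPKM at day 0, 3.26, 3.55 and 3.57 at day 3, and 4.01, 8.07 and 4.75 at day 21. It rose by 2.32 ± 0.25 (adjusted p = 8.22e-05) at day 3 and 2.94 ± 0.26 (5.46e-05) at day 21. H2-Ab1 (chr17:34263209-34269418) read 1.98, 1.66 and 1.46, then 8.98, 9.16 and 10.7, then 9.98, 16.3 and 8.82. It rose by 2.44 ± 0.23 (3.45e-05) and 2.65 ± 0.23 (5.79e-05). H2-Eb1 (chr17:34305877-34316199) read 1.93, 1.63 and 2.01, then 7.35, 7.03 and 6.93, then 9.76, 15.7 and 8.42. Its rise was 1.88 ± 0.22 (0.000144) and 2.47 ± 0.23 (7.3e-05). Every injured library lay above every day 0 library for each of these chains.

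The I-E alpha chain gene, listed as H2-Ea-ps, had no count in any library, although its beta partner H2-Eb1 was among the higher chains. The I-E alpha gene is known to be defective in several mouse haplotypes, among them b; the strain here is not given in the sources used. H2-Eb2, a minor beta chain gene, had counts of 1, 0 and 2 at day 0, 0, 0 and 0 at day 3, and 2, 1 and 3 at day 21 and was not tested. The pseudogenes H2-Pa and H2-Pb had none. H2 genes are highly polymorphic between strains, and the effect of that on mapping was not tested.

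Cd74, the invariant chain that is needed for class II assembly and transport, was the most abundant class II member at each time, under each of the 3 gene lengths. It read 6.72, 6.54 and 5.68 RPKM at day 0, 30, 30.4 and 30.1 at day 3, and 38.8, 68.6 and 35.9 at day 21. The log2 fold change was 2.21 ± 0.23 (adjusted p = 5.39e-05) and 2.79 ± 0.23 (3.95e-05). From day 3 to day 21 every library was higher, at 0.58 ± 0.21 (adjusted p = 0.0713). Without day 21 replicate 2 the change was smaller and passed the threshold (0.25, adjusted p = 0.0267), as it did without replicate 3 (0.74, 0.0323). Relative to the class II chains summed, Cd74 stood at 1.49 ± 0.129 at day 0, 1.5 ± 0.0639 at day 3 and 1.66 ± 0.0462 at day 21 (SD, n = 3); day 0 overlapped both injured groups.

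H2-DM and H2-DO are the peptide editors. Of their 5 chains, 4 were called higher at day 3 and 5 at day 21, against 24.8% and 17.9% of all genes. H2-DMb2 had 0 day 0 libraries over the filter's minimum and H2-Oa and H2-Ob 1 each, so these counts are a description. H2-DMa, the alpha chain of H2-DM, read 2.06, 1.99 and 2.72 RPKM at day 0, 5.91, 6.36 and 6.55 at day 3, and 5.39, 8.81 and 4.71 at day 21. Its changes were 1.42 ± 0.23 (adjusted p = 0.000989) and 1.35 ± 0.23 (0.00271). H2-DMb1, a beta chain, read 1.76, 1.36 and 1.11, then 6.02, 7.73 and 7.18, then 6, 8.79 and 4.83. It changed by 2.24 ± 0.25 (8.72e-05) and 2.07 ± 0.25 (0.000359). H2-DMb2, which shares 19.9% of its windows with other transcripts, chiefly H2-DMb1, rose by 1.67 ± 0.41 and 1.61 ± 0.42 from a mean of 0.191 RPKM. Its day 21 call was lost without day 0 replicate 1 or 2 or day 21 replicate 1 (adjusted p 0.0548 to 0.0727). The H2-DO alpha chain H2-Oa read 0.562, 0.271 and 0.444, then 1.02, 0.912 and 1.43, then 1.58, 2.05 and 1.54. It rose by 1.29 ± 0.31 (0.00768) and 1.85 ± 0.30 (0.00191). Of its exon bases, 22.8% overlap BC051537 on the opposite strand. The beta chain H2-Ob read 0.139, 0.000 and 0.0633, then 0.196, 0.166 and 0.125, then 0.342, 0.741 and 0.416. It was the class II member not called at day 3 (1.08 ± 0.69, adjusted p = 0.238), and it was called at day 21 (2.61 ± 0.63, 0.0138) unless day 0 replicate 3 was left out (0.0554).

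The level of H2-DM chains relative to the class II chains declined at each step. The ratio was 0.860, 0.875 and 1 in the day 0 libraries, 0.642, 0.742 and 0.682 at day 3, and 0.508, 0.461 and 0.447 at day 21, and no groups overlapped (exact permutation p = 0.1 in each of the 3 comparisons). H2-DM to H2-DO was 8.89 ± 3.68 at day 0, 11.1 ± 2.25 at day 3 and 5.98 ± 0.84 at day 21, where every day 21 library lay under every day 3 library (exact permutation p = 0.1) and day 0 overlapped both.

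Ciita, the class II transactivator (chr16:10488178-10527564), was close to the limit of detection. It had 2, 0 and 4 counts at day 0, 19, 25 and 11 at day 3, and 19, 8 and 11 at day 21, and it passed the filter on low counts through the injured libraries alone, so a difference from day 0 was built into its being tested. In RPKM these are 0.00873, 0.000 and 0.0238, then 0.124, 0.146 and 0.0773, then 0.126, 0.0577 and 0.0807, with no overlap between day 0 and either injured group. The log2 fold change was 3.28 ± 0.64 (adjusted p = 0.00283) at day 3 and 2.82 ± 0.67 (0.0132) at day 21, a call lost without day 0 replicate 1 (0.056).

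**Figure D2:**
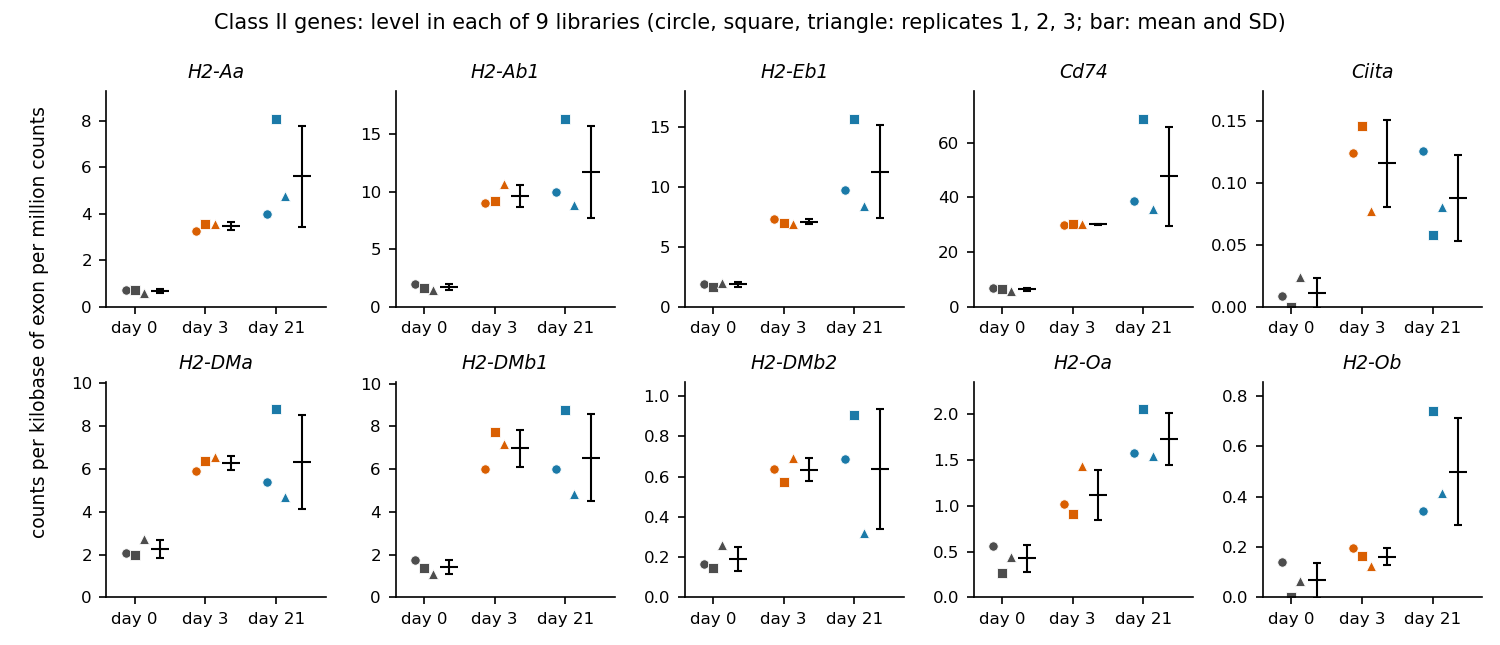
Level of 10 class II genes (vertical axis, RPKM as defined in the text, from 0) in each of the 9 libraries by day; circles, squares and triangles are replicates 1, 2 and 3, and the bar is the mean and SD (n = 3), cut off at 0. The day 3 libraries sit close together for Cd74 (30 to 30.4), while at day 21 replicate 2 is the highest for Cd74, H2-Aa, H2-Ab1 and H2-Eb1 but the lowest for Ciita.

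From day 3 to day 21, edgeR called 0 of 10 class II members, with a median log2 fold change of 0.38 (0.08 without day 21 replicate 2). At an unadjusted p under 0.05, 4 were higher and 0 lower. DESeq2 called 3 higher (14.3% of all genes), and voom with sample weights called 2 higher and 1 lower (26.9% and 29.4%). A p above the threshold does not show that levels were the same: H2-Aa at 0.62 ± 0.23, H2-Eb1 at 0.59 ± 0.21, Cd74, H2-Oa and H2-Ob, 5 of the 10, were higher in every day 21 library than in any day 3 library, as were 22.9% of all genes tested. EdgeR called 1 or 2 members when day 0 replicate 2 or any one day 21 library was left out.

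**Figure D3:**
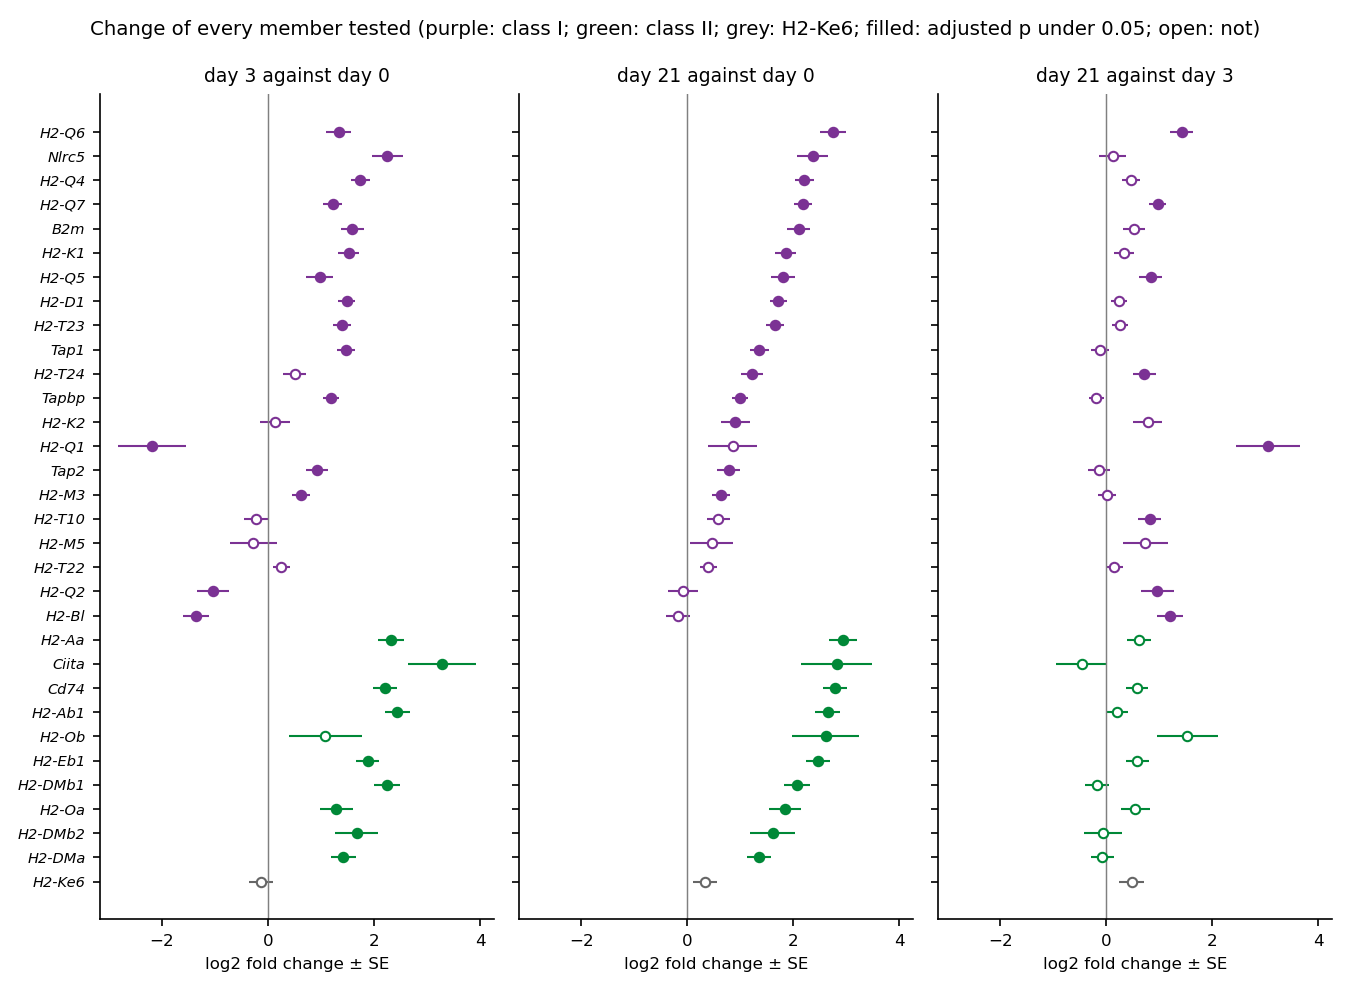
Log2 fold change (horizontal axis, ± SE) of the 32 members tested in each comparison, purple for class I, green for class II and grey for H2-Ke6, filled where the edgeR adjusted p is under 0.05; each class is ordered by its day 21 against day 0 value. The green points lie to the right of 0 at both times against day 0, purple points reach from -2.19 to 2.25 at day 3, and the filled points between day 3 and day 21 are 8 class I heavy chains.

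The difference between the classes was tested within libraries. Summed class I heavy chains stood at 91.8, 81.1 and 82.7 RPKM at day 0, 220, 215 and 218 at day 3, and 258, 364 and 229 at day 21. Summed class II chains stood at 4.64, 3.99 and 4.08, then 19.6, 19.7 and 21.1, then 23.8, 40.1 and 22.1. The class II to class I ratio was thus 0.0506, 0.0492 and 0.0493 at day 0, 0.0892, 0.0917 and 0.0971 at day 3, and 0.0922, 0.110 and 0.0963 at day 21. Every injured library exceeded every day 0 library (log2 difference 0.90 at day 3 and 1.0 at day 21, exact two-sided permutation p = 0.1 each), and day 3 and day 21 overlapped (0.10, p = 0.4). With the deposited FPKM in place of merged-exon levels these differences were 0.86, 1.0 and 0.14. In all, 12 such ratios were compared over 3 pairs of days, 36 comparisons, in none of which an exact p can pass 0.05.

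Against markers of the cells known to carry class II, the ratios moved in opposite directions. The class II chains to the monocyte and macrophage markers stood at 0.152, 0.127 and 0.140 at day 0, 0.0269, 0.0278 and 0.0293 at day 3, and 0.0468, 0.0553 and 0.0439 at day 21. To the microglia markers they stood at 0.0453, 0.0486 and 0.0478, then 0.0727, 0.0747 and 0.0773, then 0.0886, 0.128 and 0.0862. Neither ratio overlapped between any of the groups (exact permutation p = 0.1 in each comparison). The first fell at day 3 and was higher at day 21 than at day 3, and the second was higher at each step. The Lyz2 and Cd68 levels in the macrophage list were 13.6 to 16.1 and 6.42 to 8.26 RPKM at day 0 and 442 to 457 and 197 to 216 at day 3.

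Between the chains themselves, H2-Eb1 to H2-Ab1 was 0.974, 0.986 and 1.38 at day 0, 0.819, 0.767 and 0.651 at day 3, and 0.978, 0.965 and 0.954 at day 21. Day 3 lay under both other groups without overlap (exact permutation p = 0.1 against each). H2-Aa to H2-Ab1 was 0.366, 0.424 and 0.389, then 0.363, 0.388 and 0.335, then 0.402, 0.495 and 0.538, so that day 21 lay over day 3 without overlap (exact permutation p = 0.1) and day 0 overlapped both.

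**Figure D4:**
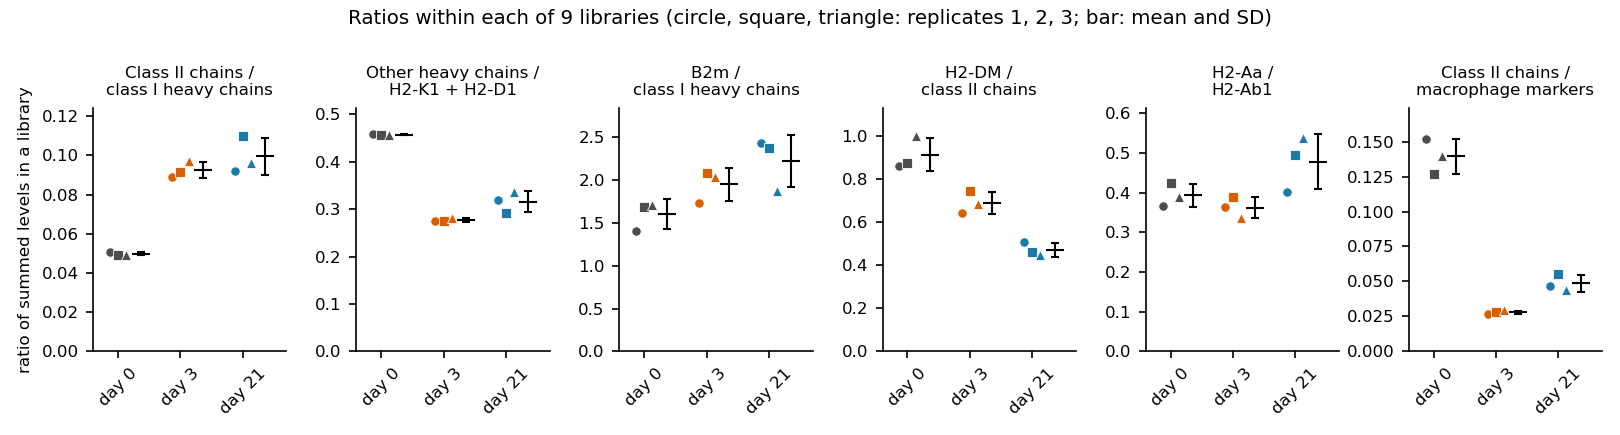
Ratio of summed levels (vertical axes, no unit, from 0) within each of the 9 libraries by day; circles, squares and triangles are replicates 1, 2 and 3, and the bar is the mean and SD (n = 3). The class II to class I ratio is near 0.05 at day 0 and 0.0892 to 0.110 after injury, H2-DM to class II chains falls from a mean of 0.913 to 0.689 and 0.472, and class II chains to macrophage markers is lowest at day 3.

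The list of partners of the transactivators holds RFX subunits, CREB and ATF proteins, NF-Y subunits and the coactivators Kdm1a, Crebbp and Kat2b. Of 11 listed and tested, 3 were called higher and 1 lower at day 3 (24.8% and 19.5% of all genes). At day 21, 2 were higher and 0 lower (17.9% and 11.3%). The medians were 0.15 and 0.07. Rfx5, a subunit of the RFX complex, read 5.20, 6.37 and 7.23 RPKM at day 0 and 3.90, 4.10 and 4.46 at day 3 and fell by 0.65 ± 0.17 (adjusted p = 0.013), a call lost without day 0 replicate 3 (0.0542) or day 3 replicate 1 (0.0526). Rfxank at 0.15 ± 0.13 and Rfxap at -0.41 ± 0.26 were not called at day 3; without day 21 replicate 2 Rfxap was (-0.42, adjusted p = 0.00284), and it was then also called lower at day 21 against day 0 (-0.55, 0.00196). Creb1 and Atf1, which bind the TGACG core, rose by 0.45 ± 0.16 and 1.17 ± 0.16 at day 3 and by 0.82 ± 0.16 and 0.76 ± 0.16 at day 21. Creb1 lost its day 3 call when a single day 0 or day 3 library, or day 21 replicate 1, was left out (adjusted p 0.0581 to 0.144). Nfya, the NF-Y subunit named here after its values were seen, rose by 1.30 ± 0.21 at day 3 (adjusted p = 0.000803) and fell by 0.94 ± 0.20 from day 3 to day 21 (0.00902). Without day 21 replicate 2 it was also called at day 21 against day 0 (0.58, adjusted p = 0.000693).

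Upstream, interferon-gamma is the known inducer of both transactivators. Ifng itself had 0, 0 and 0 counts at day 0, 0, 1 and 0 at day 3, and 0, 2 and 0 at day 21, and was not tested. The list used here holds 12 genes of interferon and JAK-STAT signalling, not of interferon-gamma alone. Of these, 11 were tested. At day 3, 9 were called higher and 0 lower (24.8% and 19.5% of all genes), and at day 21, 5 higher and 1 lower (17.9% and 11.3%). The calls include the type I interferon receptor chains Ifnar1 (0.84 ± 0.11 at day 3) and Ifnar2 (1.22 ± 0.15 at day 3 and 0.78 ± 0.15 at day 21). Irf1, an interferon-induced transcription factor, rose by 1.72 ± 0.23 and 1.55 ± 0.23, the receptor chain Ifngr1 by 1.32 ± 0.11 and 1.0 ± 0.11, and Irf8, a myeloid factor, by 2.85 ± 0.11 and 2.94 ± 0.11.

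Most genes of a list drawn up for class I peptide loading and trimming outside the members rose at day 3. Besides Pdia3, Tapbpl and the trimming enzyme Erap1, the list holds general folding and translocation genes of the endoplasmic reticulum. Of these general genes, Hspa5, Pdia6, Sec61a1, Sec61b and Uggt1 were called higher at day 3, so the counts are not of class I loading alone. Of 11 listed and tested, 9 were called higher and 0 lower at day 3, and 2 higher and 0 lower at day 21 against day 0. At day 21 against day 3, 0 were higher and 7 lower. The shares of all genes called higher and lower were 24.8% and 19.5%, 17.9% and 11.3%, and 11.7% and 16.1% in these comparisons, here and for the next list. Pdia3, the disulfide isomerase of the loading complex, rose by 0.96 ± 0.14 (adjusted p = 0.000605) at day 3 and 0.44 ± 0.14 (0.0466) at day 21. The day 21 call did not survive leaving out a single library of day 0 or day 3, or day 21 replicate 3 (adjusted p 0.0514 to 0.139). Tapbpl, a tapasin relative, rose by 0.66 ± 0.11 and 0.47 ± 0.11. Of 6 immunoproteasome and PA28 genes, 3 were higher at day 3 and 2 higher and 1 lower at day 21. Psmb8, a catalytic subunit, read 1.44, 0.919 and 0.839 RPKM, then 5.62, 5.30 and 5.10, then 3.47, 8.79 and 3.97. It rose by 2.26 ± 0.35 and 2.20 ± 0.35. Psmb9, its companion beside Tap1, rose by 1.25 ± 0.42 and 1.79 ± 0.42, and Psme3 fell by 0.37 ± 0.10 at day 21. Leaving out a single day 0 or day 3 library ended the day 3 call of Psmb9 (adjusted p 0.062 to 0.115), and leaving out day 0 replicate 3 its day 21 call (0.0515). That of Psme3 ended without day 0 replicate 2 (0.0663) or 3 (0.0816).

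On the class II side, 10 of 10 tested endosomal processing genes were higher at day 3 and 9 of 10 at day 21, against 24.8% and 17.9% of all genes. Ctss, the protease that trims the invariant chain, read 54.9, 48.5 and 46.6 RPKM, then 296, 303 and 292, then 364, 522 and 360. It rose by 2.52 ± 0.15 (adjusted p = 1.6e-06) and 2.93 ± 0.15 (2.36e-06). Ifi30, which reduces disulfide bonds in endosomes, rose by 4.35 ± 0.26 at day 3 and 2.99 ± 0.25 at day 21 and fell by 1.36 ± 0.22 between them (0.00242). Ctsz, a lysosomal protease, rose by 2.66 ± 0.19 and 2.57 ± 0.19.

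Costimulation and checkpoint ligands, counted as 1 list, were called higher in 7 of 9 tested genes at day 3, with 1 lower. At day 21, 5 were higher and 0 lower. For both lists given here, the shares of all genes called in each direction are 24.8% up and 19.5% down by day 3, then 17.9% and 11.3% by day 21. Of those tested, Cd80 in this list and Raet1d and Ulbp1 in the next had no day 0 library over the filter's minimum. Cd86, the ligand of CD28 on T cells, rose by 2.17 ± 0.20 and 2.76 ± 0.20, Icosl by 0.93 ± 0.13 and 0.96 ± 0.13, and Lgals9 by 2.12 ± 0.11 and 1.19 ± 0.11. Class I-like genes outside H2 were higher in 6 of 8 tested at day 3 and 5 of 8 at day 21, with 0 lower. Among them Mr1, which presents vitamin B metabolites, rose by 1.32 ± 0.13 and 0.95 ± 0.13, Fcgrt, the neonatal Fc receptor, by 1.07 ± 0.21 and 0.94 ± 0.21 (the latter at adjusted p = 0.05 without day 0 replicate 3), and Procr, the endothelial protein C receptor, by 3.21 ± 0.25 and 1.47 ± 0.26.

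Receptors that read MHC molecules were mostly at the limit of detection. Of the list, 5 of 13 were tested: Lag3, Pirb, Lilrb4a, Lilr4b and Pira2. The last 3 had no day 0 library over the filter's minimum and passed through the injured libraries alone, and Pirb had 2, so how many were called is not a result. Lag3, a class II receptor that microglia also express, read 1.78, 1.96 and 2.10 RPKM at day 0, 4.60, 5.18 and 4.77 at day 3, and 14.2, 23.6 and 14 at day 21. Its changes were 1.27 ± 0.21 (adjusted p = 0.00112), 3.02 ± 0.22 (1.65e-05) at the times against day 0 and, from day 3 to day 21, 1.75 ± 0.20 (0.000366). Lilrb4a, an inhibitory receptor of myeloid cells, had 1, 4 and 1 counts at day 0 and log2 fold changes of 8.41 ± 0.35 and 7.41 ± 0.35. Among T cell genes, Cd4 had 1, 0 and 0 counts at day 0, 7, 11 and 6 at day 3, and 8, 18 and 12 at day 21. Cd3e had 0, 0 and 0, then 0, 1 and 0, then 13, 11 and 7. Only 2 of 11 T and natural killer cell markers and 3 of 7 B cell markers reached the test. Of the former, Trac had 52, 45 and 47 counts at day 0 and was not called at day 3 (0.38 ± 0.28) or day 21 (0.46 ± 0.28). Gzmb had 0, 0 and 0 counts at day 0, 21, 20 and 22 at day 3, and 0, 2 and 2 at day 21. It passed the filter through the day 3 libraries alone. Cd22, of the B cell list, which had no day 0 library over the minimum, had changes of 5.29 ± 0.24 and 6.17 ± 0.24. Of 10 dendritic cell markers 5 were tested. Itgax, shared with microglia and macrophages, rose by 3.65 ± 0.15 and 5.93 ± 0.16, and Flt3 fell by 1.37 ± 0.13 and 0.62 ± 0.13. The part of these cells in the class II rise was not tested.

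The labelled tissue held its defining markers: 8 neuron markers summed to 2000 to 2010 RPKM at day 0, 990 to 1000 at day 3 and 1340 to 1370 at day 21, with 8 called lower at day 3 and 7 at day 21. Of 5 oligodendrocyte markers 3 were lower at day 3 and 1 at day 21. Of 5 astrocyte markers 3 were higher and 2 lower at day 3 and 2 higher at day 21. Of 4 endothelial markers 3 were higher at day 3 and 0 at day 21 (0 at an unadjusted p under 0.05 and by DESeq2). Beside these 4 lists, 24.8% of all genes were called higher and 19.5% lower at day 3, and 17.9% and 11.3% at day 21. For the counts of 0 given for the lists at day 3 or day 21 against day 0, an unadjusted p under 0.05 gave 1 lower gene among the module partners at day 21 and 1 in the interferon list at day 3, and 0 for the others, and DESeq2 gave 0 for every one.

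The remaining members were at or near 0. Without a count in any library were 12 genes. They were H2-M10.1 to H2-M10.6 and H2-M10.5-ps1, a family known from vomeronasal neurons, and H2-M11, H2-Q3, H2-Ea-ps, H2-Pa and H2-Pb. H2-M1 had counts in the day 3 libraries alone, 2, 6 and 3 of them, at least 4.3-fold higher than a limit of 3 counts over the day 0 group. H2-Q10, a secreted class I chain made mainly in liver, had 2 counts over the day 0 libraries, 26 over day 3 and 16 over day 21. H2-M2, H2-M6-ps, H2-M9 and H2-T3 had 1 to 17 counts over the 9 libraries. H2-Ke6, the steroid dehydrogenase gene of the region, read 9.32, 9.15 and 8.95 RPKM at day 0, 8.92, 9.06 and 7.92 at day 3, and 9.43, 18.8 and 9.87 at day 21, and was not called in any comparison (-0.13 ± 0.23, 0.34 ± 0.23 and 0.48 ± 0.23). Of its exon bases, 86.4% lie in Gm20427, so reads of both genes cannot be told apart.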

How the data were processed

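Poly-A libraries of 9 spinal cord samples were sequenced in pairs, per the labels' protocols. The authors deposited 1 table with a read count and an FPKM per gene and library. HISAT2, StringTie and the build GRCh38 appear in the submitters' processing notes, although the gene positions are those of mouse GRCm38; the sources used here do not give annotation, strand use or counting settings. The deposited FPKM equalled count over the authors' gene length over the library total (largest deviation 0.00161% over 12001 genes), and that length exceeded the gene's locus for 7 members, so printed levels (RPKM) use GENCODE M21 merged exons. All 9 libraries entered 1 edgeR 4.0.16 quasi-likelihood fit (TMM, filterByExpr, robust; 16494 genes; R 4.3.3), with calls at a p under 0.05 after Benjamini-Hochberg adjustment; the SE is the log2 fold change over the root of F. The common biological coefficient of variation was 0.205. DESeq2 1.42.0, limma 3.58.1 (also voom), other scalings, filters, pseudocounts, a replicate block and leaving out each library were alternatives; merged-exon ratios were added after seeing the data. Promoter sequences came from RefSeq (GRCm38.p6; 34 of 51 members matched). Members given in every library had a group mean of at least 5 FPKM or were Ciita, Nlrc5, H2-Oa, H2-Ob, H2-Eb2 or H2-Ea-ps; genes outside the members were up to 3 called genes of each of 17 lists at 1 FPKM or more with the largest change at day 21, and Ifng, Irf1, Rfx5, Rfxank and Rfxap. Outside this rule, H2-Bl, H2-M1, Cd4, Cd3e, Trac, Gzmb and Nfya were added after their values were seen. The same holds for genes named for how they passed the filter or to say what a list holds. Some list genes are not reported here by name. Members and lists were chosen with earlier results of these data known.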

Additional observations from a re-analysis of the deposited data

How the results depend on the processing

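No result reversed. Leaving out each library gave 13 to 18 class I calls at day 3 against day 0 (16 in the fit of all libraries), 12 to 15 at day 21 (15) and 4 to 10 between the injured days (8), and 9 to 9 (9), 8 to 10 (10) and 0 to 2 (0) class II calls. The log2 difference of the class II to class I ratio was then 0.84 to 0.88 (0.86), 0.92 to 1.06 (1.0) and 0.06 to 0.20 (0.14). A filter of 5 FPKM in 3 libraries, which tests fewer genes, left 7, 8 and 1 class I calls, 6 class II calls at day 21 and 3 between the injured days. Limma on log2(FPKM + pseudocount) tested 6 class II members and called all 6 at day 21 at each pseudocount (0.1, 1 and 5). Between the injured days, voom with sample weights called 13 class I and 3 class II members, beside 26.9% of all genes higher and 29.4% lower. DESeq2 called 3 class II members (14.3% and 17.6% of all genes). Upper-quartile scaling (15.9% and 13.4%) and a fit of only those groups (9.21% and 12.7%) called 1 class II member each. The cause was not tested. Upper-quartile scaling moved the all-gene median to 0.103 (day 21 against day 0) and 0.118 (day 21 against day 3). With a replicate block the class I calls between the injured days were 4; same-numbered libraries correlated at -0.146 to 0.107, 1 of 9 pairs over 0.1, so the numbers were not taken as pairs. The ratio difference at day 3 was 0.94 from summed CPM and 0.67 from the abundant genes, and 0.86 from the latter at day 21. In total 128 of these counts and ratios stayed within the limits set and 25 moved; for single genes 3546 values held, 119 lost and 75 gained a call. Members under about 20 counts a library, Ciita among them, are limited by depth.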
